A study of Mus musculus with 23 samples.

Results

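The circadian clock genes were followed as a set of 10 named genes: the activators *Arntl* and *Clock*, the repressors *Per1*, *Per2*, *Per3*, *Cry1* and *Cry2*, the nuclear receptors *Nr1d1* and *Nr1d2*, and the output factor *Dbp*. The platform annotation gives them 19 of the 45281 probes, and they are 10 of the 19057 genes named on the arrays. Gastrocnemius, a calf muscle, had been taken from 23 mice with engineered changes of the Stch-App interval of mouse chromosome 16, and 1 mouse was read on each array. Ts2Yah Dup mice (n = 6) carry a duplication of the interval and are trisomic for it, and Ts2Yah WT mice (n = 5) are their diploid littermates. Ms3Yah Del mice (n = 6) lack 1 copy of the interval and are monosomic for it, and Ms3Yah WT mice (n = 6) are their diploid littermates. The Ts2Yah animals of the labels were taken as the Ts3Yah mice of the methods. Both alleles were made in embryonic stem cells by Cre/loxP recombination and bred onto a C57BL/6J background, and the changes are present in every tissue. The mice were adult, of the strain labelled C57BL6/J, and littermates were matched for age and gender. Exact age, sex and the hour at which each muscle was collected are not given in the sources used here.

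The clock is a loop of transcription that runs in nearly every cell with a period of about a day. ARNTL and CLOCK pair to switch on genes that carry E-boxes, among them the *Per* and *Cry* genes, *Nr1d1*, *Nr1d2* and *Dbp*, and the PER and CRY proteins then shut ARNTL and CLOCK down. NR1D1 and NR1D2 repress *Arntl* at ROR elements, and DBP acts on D-boxes. In skeletal muscle, *Arntl* RNA is known to peak in about the opposite phase to *Dbp* and *Per2*, with *Nr1d1* running ahead of *Dbp*. Their level in a muscle taken at 1 moment is thus known to depend on the hour.

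Letter patterns for the elements of the loop were searched in the promoters, and 4 stretches that hold such matches are shown. RefSeq promoter windows (GRCm38.p6) were at hand for 9 of the 10 genes. Each holds 250 bases before a transcription start, and capitals mark the element searched, on both strands. The ROR element was written TNGGTCA, the E-box CACGTG and the D-box TTANGTAA, and none of these overlaps another in the stretches shown. N stands for any base. The *Arntl* matches hold T and C at that place, and whether they work as ROR elements was not tested.
Arntl, ROR elements, chr7:113207259-113207296, plus strand: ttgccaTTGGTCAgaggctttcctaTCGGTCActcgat
Per1, E-box, chr11:69098769-69098802, plus strand: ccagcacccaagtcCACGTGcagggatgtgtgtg
Cry1, E-box, chr10:85185095-85185128, minus strand: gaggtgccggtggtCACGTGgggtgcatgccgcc
Per3, D-boxes, chr4:151044811-151044875, minus strand: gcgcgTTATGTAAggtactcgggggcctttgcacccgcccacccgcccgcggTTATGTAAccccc

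The E-box was found before the start of *Per1* and *Cry1*, 2 of the 9 genes, and in 6.02% of all 32851 windows. The D-box was found in *Per3* alone, and in 2.06% of all windows. The ROR element was found in *Arntl*, *Cry2* and *Per3*, and in 9.19% of all windows. A gene counted when any of its windows held a match, while the percentages count single windows, so the units differ. *Arntl*, *Clock* and *Per1* have 2, 3 and 2 windows. The first ROR element of *Arntl* lies 200 bases before the first of its start sites, the E-box of *Per1* 166 bases and that of *Cry1* 60 bases before theirs, and the first D-box of *Per3* 205 bases. The windows of *Clock*, *Nr1d1*, *Nr1d2* and *Dbp* held none of these letters. Such matches are descriptions of the sequence and do not show binding in these muscles.

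Values below are probe signals after quantile normalisation over the 23 arrays, and a log2 difference comes from limma with its SE. A probe counted as detected on an array when its detection p-value was below 0.05. Between 16945 and 18669 probes were detected per array, and the log2 signals of any pair of arrays correlated at 0.973 or more. All 7 muscle markers of the list used, such as *Ckm* and *Acta1*, were detected on every array. The labels were checked on the interval, which holds no clock gene. *App*, which ends the interval and is lost in the deletion, lay at 1112 to 1557 in Ms3Yah Del mice, against 2187 to 2569 in Ms3Yah WT mice (0.548-fold, adjusted p = 0.000489). *App* is not duplicated in Ts2Yah mice and stood at 2056 to 2713 in Ts2Yah Dup mice, against 2102 to 2554 in Ts2Yah WT mice. Of 10 other genes checked that have 3 copies in Ts2Yah Dup mice, 8 had a higher mean there. In limma and in the methods' t-test 0 of the 10 passed, and at an unadjusted p below 0.05 it was 5 in each. In limma 4 of these were higher in Ts2Yah Dup mice and *Usp25* was lower (0.796-fold, adjusted p = 0.597). *Atp5j*, which encodes a subunit of the mitochondrial ATP synthase, lay at 22572 to 27766 in Ts2Yah Dup mice, against 18098 to 21324 in Ts2Yah WT mice (1.29-fold, adjusted p = 0.136). *Chodl* (1.47-fold, limma adjusted p = 0.487) and *D16Ertd472e* (1.27-fold, limma adjusted p = 0.136) did not overlap between the genotypes either. Nor did *Usp25*, which went the other way, at 139 to 160 in Ts2Yah Dup mice, against 164 to 221 in Ts2Yah WT mice. The share of all probes without overlap was not computed for this comparison. In Ms3Yah Del mice *Atp5j* (0.65-fold, adjusted p = 0.0012) and *Jam2* (0.772-fold, adjusted p = 0.00192) passed.

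The brightest probe of 8 of the 10 genes was detected on every array. That of *Per3* was detected on 21 of 23 arrays, in all 6 Ts2Yah Dup, all 5 Ts2Yah WT, 5 of 6 Ms3Yah Del and 5 of 6 Ms3Yah WT mice. *Cry1* was detected on 1 array only, so it has no level above background here and no fold is given. *Per1* and *Per2* each have a second probe detected on all arrays, which followed the brightest across mice (r = 0.95 for *Per1* and 0.94 for *Per2*, n = 23, deviations from group means). The second *Nr1d2* probe followed less closely (r = 0.71), and the second *Clock* probe, detected on 14 arrays, did not follow the brightest (r = 0.15). These r values describe probes that share arrays. The third probes of *Clock*, *Per1* and *Per2* were detected on 0, 4 and 1 arrays, and the second probes of *Per3* and *Cry2* on 12 and 0.

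**Figure D1:**
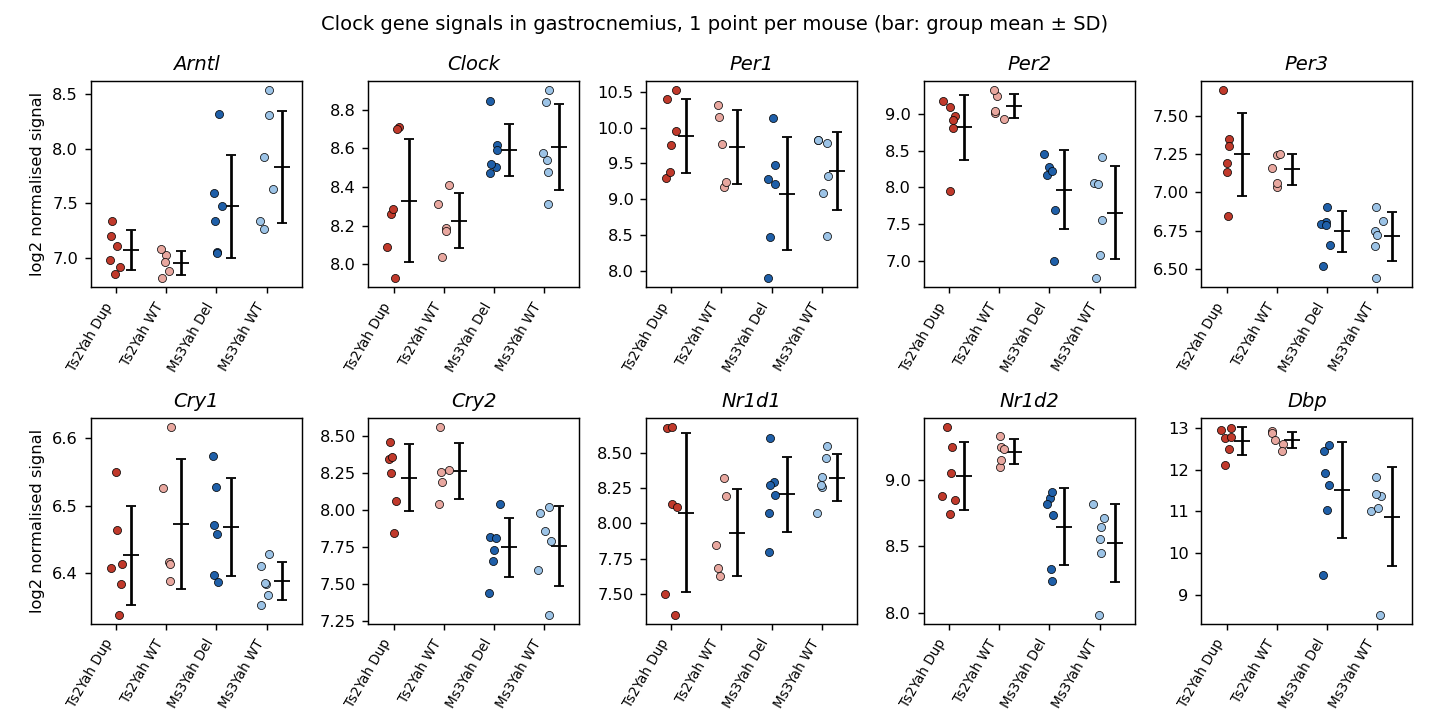
Log2 normalised signal of the brightest probe of each clock gene, 1 point per mouse, in Ts2Yah Dup, Ts2Yah WT, Ms3Yah Del and Ms3Yah WT mice, with the group mean and SD as a bar. Within each line the groups overlap for all 10 genes, while for *Per2*, *Per3*, *Cry2*, *Nr1d2* and *Dbp* the Ts2Yah WT mice sit above all Ms3Yah WT mice and for *Arntl* below them.

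The first comparison asked whether 3 copies of the interval changed the clock in muscle. In Ts2Yah 0 of the 19 probes passed the adjusted threshold of 0.05 in limma, where 0.00455% of all 43917 tested probes did, and 0 had an unadjusted p below 0.05, where 5.56% of all probes did. The methods' t-test, run on the same values, likewise called 0 of the 19, adjusted or not. *Nr1d2*, a repressor of *Arntl*, lay at 427 to 673 in Ts2Yah Dup mice (median 499.9), against 546, 568, 600.2, 607 and 644 in Ts2Yah WT mice. The groups overlapped, though 4 of the 6 Dup mice lay below every WT mouse (log2 difference -0.18, SE 0.10, limma adjusted p = 0.912), and the difference was -0.10 with *Xist* as a covariate.

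*Arntl* lay at 116 to 161 in Ts2Yah Dup mice (median 132), against 112, 118, 125, 129.97 and 135 in Ts2Yah WT mice. Its log2 difference was 0.12 (SE 0.08, 95% interval -0.06 to 0.29). *Dbp* lay at 4402 to 8180 in Ts2Yah Dup mice (median 6974), against 5572, 6206, 6696, 7492 and 7693 in Ts2Yah WT mice. Its difference was -0.03 (SE 0.15, interval -0.34 to 0.29). *Per2* averaged 466 ± 117 in Ts2Yah Dup mice and 554 ± 64.4 in Ts2Yah WT mice (SD, n = 6 and 5), with a difference of -0.29 (SE 0.18, interval -0.68 to 0.10). Mouse 34662 of Ts2Yah Dup was low at 247, and the other 5 Dup mice lay at 447 or more. Without it the differences were -0.12 for *Per2*, 0.06 for *Arntl* and 0.09 for *Dbp*, the last with its sign turned. Of the 10 brightest probes, 5 were higher and 5 lower in Ts2Yah Dup, with a median difference of 0.03, beside a median of 0.00 over all tested probes.

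The same question was put to the loss of 1 copy. In Ms3Yah 0 of the 19 probes passed in limma, where 0.018% of all 44363 tested probes did. At an unadjusted p below 0.05 it was 1 probe, that of the undetected *Cry1* (limma adjusted p = 0.968), where 5.16% of all probes passed. The methods' t-test gave the same counts of 0 and 1. With all mice *Dbp* had the largest difference of the 10 genes in size, with 712, 2088, 3171, 3879.9, 5598 and 6193 in Ms3Yah Del mice, against 368, 2076, 2178, 2656, 2713 and 3645 in Ms3Yah WT mice. The genotypes overlapped, though 3 of the 6 Del mice lay above the highest WT mouse. The log2 difference of 0.64 had an SE of 0.60 and an interval of -0.65 to 1.93, which holds a fall of *Dbp*, no change and a marked rise. The value rests on single mice. It was 0.17 without Ms3Yah WT mouse 37094, smaller in size than *Per1* (-0.37) and *Arntl* (-0.22) in that fit, and 1.05 without Ms3Yah Del mouse 37039.

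*Arntl*, the activator, lay at 132 to 319 in Ms3Yah Del mice (median 169.6), against 154 to 371 in Ms3Yah WT mice (median 219.9). The log2 difference was -0.36 (SE 0.25, interval -0.91 to 0.19, adjusted p = 0.989), -0.22 without mouse 37094 and -0.53 without mouse 37039. *Per2* averaged 263 ± 81.4 in Ms3Yah Del mice and 217 ± 88.4 in Ms3Yah WT mice (SD, n = 6 each), and its probes differed by 0.31 (SE 0.30) and 0.35 (SE 0.26). The brightest probe of *Per2* differed by 0.14 without mouse 37094 and by 0.51 without mouse 37039. *Nr1d1* averaged 299.6 ± 55.0 in Ms3Yah Del mice and 322 ± 37.2 in Ms3Yah WT mice, *Per1* 607 ± 309 and 708 ± 231, and *Clock* 387 ± 37.9 and 394 ± 61.5, Del before WT each time. None of these differences passed.

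Whether the duplication and the deletion acted differently was tested as the difference of the 2 genotype differences in a fit of all 4 groups. In limma 0 of the 19 probes passed, where 0.0266% of all 45139 probes did, and *Cry1* alone had an unadjusted p below 0.05, where 5.71% of all probes did. The methods' t-test gave 0 and 1. The difference was 0.48 for *Arntl* (SE 0.29), -0.67 for *Dbp* (SE 0.68) and -0.61 for *Per2* (SE 0.38). The intervals reach from -0.13 to 1.08 for *Arntl* and from -2.07 to 0.73 for *Dbp*. Without mouse 37094 the difference was -0.20 for *Dbp*, 0.34 for *Arntl* and -0.43 for *Per2*, and without mouse 37039 it was -1.08, 0.65 and -0.80 in the same order.

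**Figure D2:**
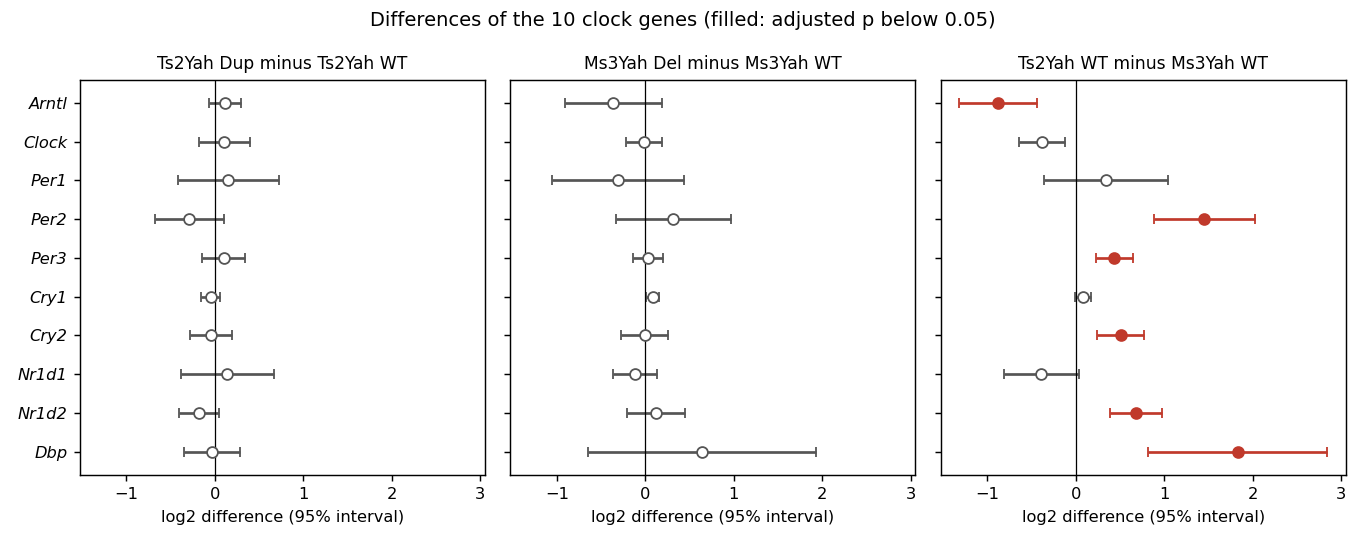
Log2 difference of the brightest probe of each clock gene with its 95% interval for Ts2Yah Dup minus Ts2Yah WT, Ms3Yah Del minus Ms3Yah WT and Ts2Yah WT minus Ms3Yah WT. Filled points mark an adjusted p below 0.05, which no gene reaches for genotype and 6 genes reach between the diploid mice, with *Arntl* lower and *Per2*, *Per3*, *Cry2*, *Nr1d2* and *Dbp* higher in Ts2Yah WT.

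The diploid littermates of the 2 lines carry no change of the interval, and comparing them shows how far the clock genes differed between the cohorts. In Ts2Yah WT mice, *Arntl* was lower, and the repressors *Per2*, *Per3* and *Cry2*, the receptor *Nr1d2* and the output gene *Dbp* were higher than in Ms3Yah WT mice. In all, 7 of the 19 probes passed, 6 higher and 1 lower, where 2.7% of all 45139 probes passed, 1.48% higher and 1.23% lower. At an unadjusted p below 0.05 it was 9 probes, where 16.6% of all probes passed. The values of the cohorts did not overlap for 7 probes of the members, where this held for 2.72% of all probes. Line, cohort, collection and array processing cannot be told apart in this comparison.

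*Dbp*, a direct target of ARNTL and CLOCK, had 5572, 6206, 6696, 7492 and 7693 in Ts2Yah WT mice, against the 368 to 3645 given above for Ms3Yah WT mice. The means were 6732 ± 884 and 2273 ± 1086 (SD, n = 5 and 6), Ts2Yah WT before Ms3Yah WT, a 2.96-fold level (log2 difference 1.83, SE 0.49, adjusted p = 0.0448). This call rests close to the threshold. It was lost when any of 16 of the 23 mice was left out (adjusted p 0.0158 to 0.0948 over the 23 fits, log2 difference 1.36 to 2.02), and without mouse 37094, the lowest for *Dbp*, the difference was 1.36 (adjusted p = 0.0795). With mouse 37039 of Ms3Yah Del left out as well, it was 1.36 with an adjusted p of 0.00427.

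*Per2*, whose protein represses ARNTL and CLOCK, had 486, 515, 525, 604 and 638 in Ts2Yah WT mice, against 109 to 340.4 in Ms3Yah WT mice (median 226). Every Ts2Yah WT mouse lay above every Ms3Yah WT mouse on both detected probes. The level was 2.55-fold on the brightest probe (log2 difference 1.45, SE 0.28, adjusted p = 0.00544) and 2.19-fold on the second (1.17, SE 0.26, adjusted p = 0.0151). The brightest probe kept its call when each of the 23 mice was left out in turn (adjusted p 0.00233 to 0.0159).

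*Arntl* had 112, 118, 125, 129.97 and 135 in Ts2Yah WT mice, against 154 to 371 in Ms3Yah WT mice. The Ts2Yah WT mice were closely grouped, close to the background of the arrays, and all below the lowest Ms3Yah WT mouse. The level was 0.516-fold on average (log2 difference -0.88, SE 0.21, limma adjusted p = 0.0255). Without mouse 37094 the difference was -0.74 (adjusted p = 0.0653). *Nr1d2* averaged 593 ± 37.8 in Ts2Yah WT mice and 375 ± 69.1 in Ms3Yah WT mice (1.58-fold, log2 difference 0.68, SE 0.14, adjusted p = 0.0111). Its second probe differed by 0.23 (SE 0.08) and did not pass (adjusted p = 0.125).

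*Cry2*, a partner of the PER proteins, averaged 310.04 ± 41.98 in Ts2Yah WT mice and 219.7 ± 38.7 in Ms3Yah WT mice (1.41-fold, log2 difference 0.51, SE 0.13, adjusted p = 0.0343). *Per3* averaged 142 ± 9.75 in Ts2Yah WT mice and 105 ± 11.2 in Ms3Yah WT mice (1.35-fold, log2 difference 0.44, SE 0.10, adjusted p = 0.0231), close to the background of the arrays. On its second probe, detected on 12 arrays, the cohorts overlapped and the difference was 0.12 (SE 0.06, limma adjusted p = 0.368). For both genes the cohorts did not overlap on the brightest probe. Without mouse 37094 neither passed (adjusted p = 0.0819 for *Cry2* and 0.0636 for *Per3*). *Clock* averaged 300.3 ± 29.6 in Ts2Yah WT mice and 394 ± 61.5 in Ms3Yah WT mice, which overlapped (log2 difference -0.38, SE 0.12, adjusted p = 0.107).

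*Nr1d1*, a receptor related to *Nr1d2*, averaged 249 ± 54.1 in Ts2Yah WT mice and 322 ± 37.2 in Ms3Yah WT mice, and the log2 difference of -0.39 (SE 0.20, interval -0.81 to 0.03) did not pass (adjusted p = 0.3504). *Per1* averaged 894 ± 312 in Ts2Yah WT mice and 708 ± 231 in Ms3Yah WT mice, with a difference of 0.34 (SE 0.34, adjusted p = 0.678). Its mice overlapped widely, at 576 to 1278 in Ts2Yah WT and 359 to 912 in Ms3Yah WT.

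The sizes of these differences were other in values with background subtracted. On the series matrix the log2 difference was -1.96 for *Arntl*, 2.18 for *Per3*, 2.30 for *Per2*, 0.81 for *Cry2*, 0.86 for *Nr1d2* and 1.92 for *Dbp*, where *Per3*, *Cry2* and *Dbp* did not pass. With neqc, which also corrects background, it was -1.57 for *Arntl*, 1.10 for *Per3*, 2.04 for *Per2* and 0.73 for *Cry2*, all of which passed, and 1.90 for *Dbp*, which did not. The directions were those given above, and the dim *Per3* and *Arntl* moved most.

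The aneuploid mice were compared across the cohorts as well, a choice made after seeing the values above. *Per2* lay at 247 to 577 in Ts2Yah Dup mice, against 128 to 351 in Ms3Yah Del mice (log2 difference 0.85, adjusted p = 0.0825). *Dbp* lay at 4402 to 8180 in Ts2Yah Dup mice, against 712 to 6193 in Ms3Yah Del mice (1.16, adjusted p = 0.193), and *Arntl* at 116 to 161, against 132 to 319 (-0.40, adjusted p = 0.312). Of the 19 probes 2 passed, those of *Per3* and *Cry2*, where 3.11% of all probes did. The differences of *Arntl*, *Per2* and *Dbp* ran the same way as between the diploid mice but did not pass, and the groups overlapped.

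Across the 4 groups, *Per2* was highest in Ts2Yah WT mice by mean and median, followed by Ts2Yah Dup, Ms3Yah Del and Ms3Yah WT mice. *Dbp* took the same order by mean, but by median Ts2Yah Dup mice stood above Ts2Yah WT mice. *Arntl* was highest in Ms3Yah WT mice, followed by Ms3Yah Del, Ts2Yah Dup and Ts2Yah WT mice, the reverse of *Per2*. Neighbours within a line did not differ beyond their spread for any of the 3 genes. The step between Ts2Yah Dup and Ms3Yah Del mice did not pass for any of them either.

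The next question was how much each gene varied between mice of 1 group. Among 13006 probes detected on every array, the SD of log2 signals within groups had a median of 0.14. *Dbp* had an SD of 0.87, larger than that of 99.6% of those probes, *Per1* 0.60 (98.9%), *Per2* 0.49 (98.1%), *Arntl* 0.37 (96.1%) and *Nr1d1* 0.36 (95.7%). *Nr1d2*, *Cry2* and *Clock* stood at 0.25, 0.23 and 0.22, above 89.5%, 86.1% and 85.1% of the probes.

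The spread is given for each line apart. The SD of *Dbp* was 0.28 within groups of the Ts2Yah line and 1.17 within groups of the Ms3Yah line, and that of *Arntl* was 0.15 and 0.49, Ts2Yah before Ms3Yah. The ratio, 0.241 for *Dbp* and 0.311 for *Arntl*, was lower in 0.477% and 1.31% of the probes detected throughout, where the median ratio was 0.893. Without mice 37039 and 37094 the SD within the Ms3Yah groups was 0.50 for *Dbp* and 0.35 for *Arntl*, and the ratio 0.558 and 0.438. *Nr1d1* went the other way, with 0.47 in the Ts2Yah line and 0.22 in the Ms3Yah line, a ratio above that of 98.7% of the probes. *Per1* varied widely in both lines, with 0.51 and 0.67. *Arntl* lay close to the background of the arrays in the Ts2Yah line, at 116 to 161 in Dup and 112 to 135 in WT mice. The signals were not background-subtracted, which narrows log2 spread near background, and the part of this in the ratio of *Arntl* was not tested. These spreads are descriptions, and their difference between lines was not tested.

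**Figure D3:**
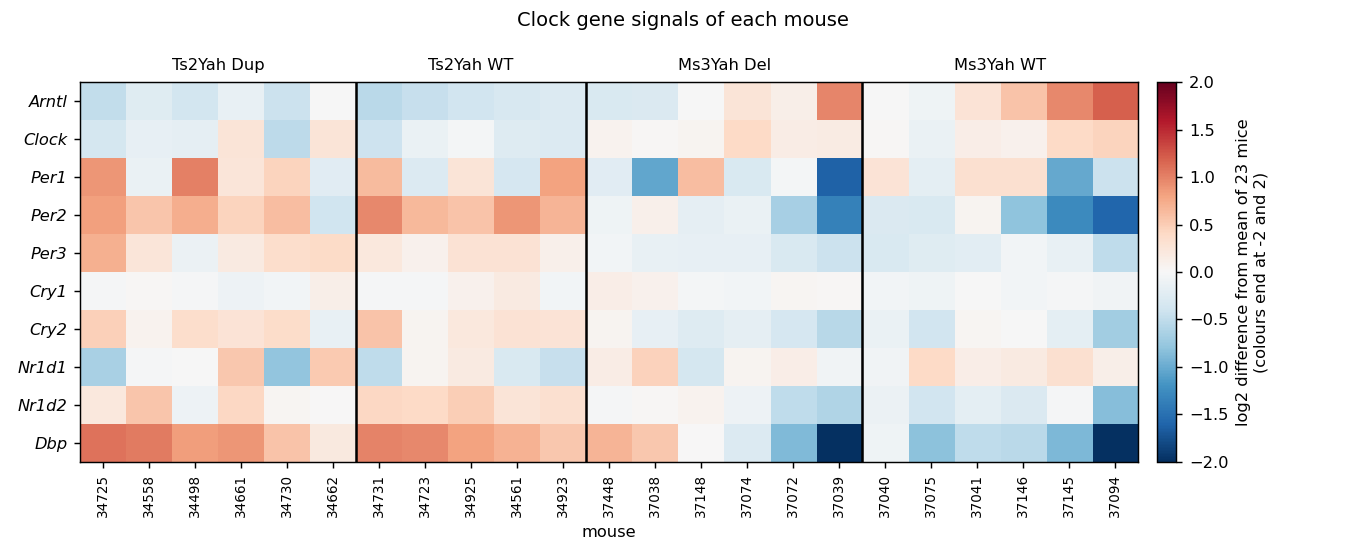
Difference of each mouse (columns, ordered within each group by *Dbp* minus *Arntl*) from the mean of all 23 mice for each clock gene (rows), in log2 units, red for higher and blue for lower. The 2 mice with the deepest *Dbp* and *Per2* signals below the mean, 37039 and 37094, are also the highest for *Arntl* in their groups.

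Single mice stood apart from the rest. Mouse 37094 of Ms3Yah WT had the highest *Arntl* of all, at 371, and the lowest *Dbp*, at 368, and the lowest *Per2*, at 109. Mouse 37039 of Ms3Yah Del had *Arntl* at 319, *Dbp* at 712 and *Per2* at 128. They come from different genotypes, and both stood apart in the same direction. Mouse 37145 of Ms3Yah WT had *Arntl* at 316 and *Per2* at 136, near those of the pair, but *Dbp* at 2076. Leaving out 37039 and 37094 left the count of members called in limma at 0 in Ms3Yah and at 0 for the difference between the lines, with 2 at an unadjusted p below 0.05 in each, where 5.61% and 5.59% of all probes passed, a choice made after seeing these values.

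Other cell markers were measured in the same mice. The summed signal of the 2 blood genes with a probe, *Hba-a1* and *Alas2*, was highest in these mice of all 23, at 16732 in 37039 and 15345 in 37094, against 5134 to 11491 in the other 10 mice of the Ms3Yah line. The summed macrophage signal, of *Adgre1* and *Lyz2*, was 2772 in 37039 and 1357 in 37094, against 454 to 1322 in those 10. Over all mice and centred on group means, *Dbp* correlated at -0.66 with the blood sum and -0.57 with the macrophage sum (n = 23, samples shared). With the adipocyte sum, the nerve gene *Mbp* and the endothelial sum it correlated at 0.05, -0.04 and -0.21. The adipocyte sum was 549 in 37039 and 5630 in 37094. These r values include mice 37039 and 37094 and were not computed without them. The blood sum is mostly *Hba-a1*, with a mean signal of 8167, against 136 for *Alas2*. The muscle sum was 219210 in 37039, the highest of all mice, and 209832 in 37094, and it correlated with *Dbp* at -0.10. The part of blood and macrophages in the values of *Dbp* was not tested. In bulk muscle, fewer cells of a type and less RNA per cell cannot be told apart.

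The phase relation of *Arntl* to its partners was then followed mouse by mouse, as a check of collection time. Signals of the brightest probes were centred on their group means, so that differences between groups do not enter, and p-values come from 100000 permutations of mice within groups, adjusted over the 9 partners of *Arntl*. *Dbp* ran opposite to *Arntl* (Pearson r = -0.83, permutation p = 0.00016, adjusted p = 0.00072; Spearman rho = -0.70, permutation p = 0.00069, n = 23). *Per2* did so too (r = -0.86, permutation p = 7e-05, adjusted p = 0.00063; rho = -0.84, permutation p = 0.00013), and *Cry2* more loosely (r = -0.58, adjusted p = 0.0234; rho = -0.52, adjusted p = 0.0524). *Clock*, the partner of *Arntl*, moved with it (r = 0.62, adjusted p = 0.00231; rho = 0.81).

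*Nr1d1* showed no such relation over all mice (r = 0.09, permutation p = 0.599, adjusted p = 0.674; rho = 0.14, permutation p = 0.499). The remaining partners did not pass, with r of -0.51 for *Per1* (adjusted p = 0.0618), -0.46 for *Nr1d2* (0.111), -0.34 for *Per3* (0.111) and -0.05 for the undetected *Cry1* (0.815). The mice 37039 and 37094 are also the 2 farthest from the median of *Arntl*. Without them, the relation to *Dbp* was weaker but still passed (r = -0.58, adjusted p = 0.0309; rho = -0.66), as did those to *Per2* (r = -0.74, adjusted p = 0.00814) and *Clock* (r = 0.70, adjusted p = 9e-05). That to *Cry2* did not (r = -0.26, adjusted p = 0.413).

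**Figure D4:**
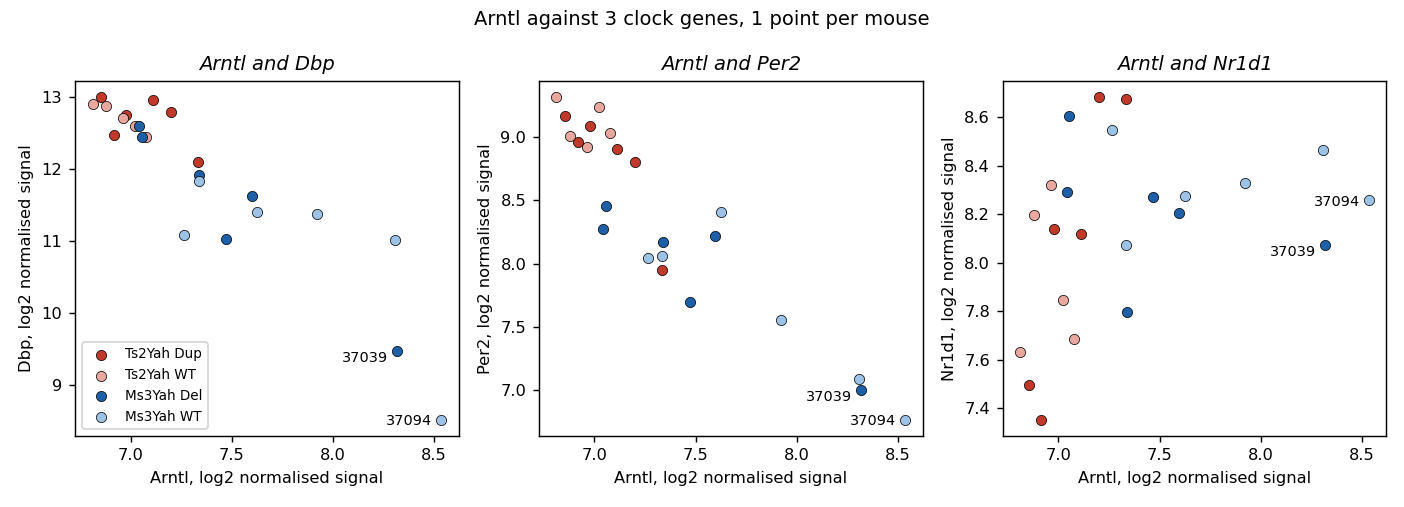
Log2 normalised signal of *Arntl* (horizontal) against *Dbp*, *Per2* and *Nr1d1* (vertical), 1 point per mouse, coloured by group, with mice 37039 and 37094 named. *Dbp* and *Per2* fall as *Arntl* rises (r = -0.83 and -0.86 on values centred on group means), whereas *Nr1d1* shows no common slope (r = 0.09).

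Within the lines, *Arntl* and *Dbp* correlated at -0.65 in the 11 mice of the Ts2Yah line (permutation p = 0.0632, adjusted p = 0.114; rho = -0.52) and at -0.84 in the 12 mice of the Ms3Yah line (permutation p = 0.00078, adjusted p = 0.00409; rho = -0.77). *Arntl* and *Per2* correlated at -0.78 in the Ts2Yah line (adjusted p = 0.0535) and -0.90 in the Ms3Yah line (adjusted p = 0.00409), on permutation tests. *Arntl* and *Nr1d1* correlated at 0.71 in the Ts2Yah line (permutation p = 0.0421, adjusted p = 0.0947) and -0.21 in the Ms3Yah line (permutation p = 0.514, adjusted p = 0.514). The difference between these r values was not tested.

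As a plain description, the signals of *Arntl* and *Dbp* can be set against their means over all 23 mice. All 6 Ts2Yah Dup and all 5 Ts2Yah WT mice had *Arntl* below and *Dbp* above the mean. Of the Ms3Yah Del mice, 3 had that pattern and 3 the opposite one. Of the Ms3Yah WT mice, 4 had *Arntl* above and *Dbp* below the mean, and 2 had both below. *Dbp* minus *Arntl* ran from 0.20 to 1.58 in Ts2Yah Dup, 0.80 to 1.53 in Ts2Yah WT, -3.41 to 0.99 in Ms3Yah Del and -4.57 to -0.07 in Ms3Yah WT mice, in log2 units.

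**Figure D5:**
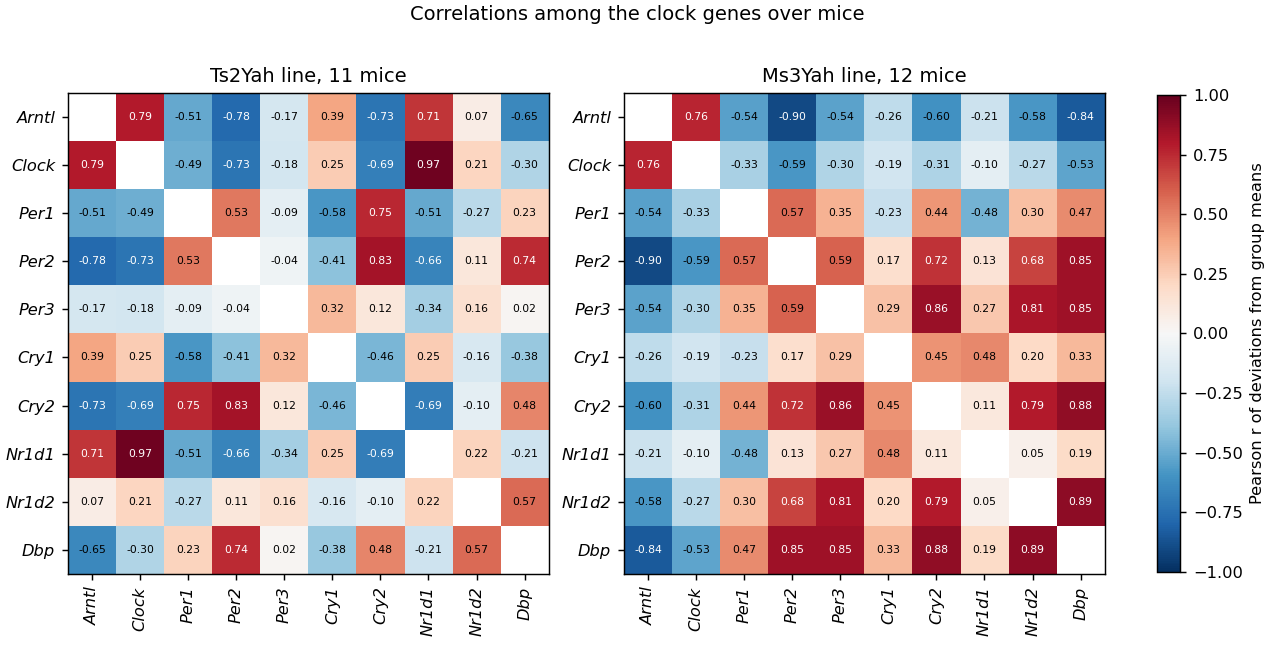
Pearson r between the brightest probes of the clock genes over mice, after centring on group means, in the Ts2Yah line (11 mice) and the Ms3Yah line (12 mice). *Dbp*, *Per2* and *Cry2* run together and against *Arntl* in both lines, whereas *Nr1d1* follows *Clock* at 0.97 in the Ts2Yah line and stands at -0.10 to it in the Ms3Yah line.

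Among the other pairs, given as a description over mice that share arrays, *Per2* and *Dbp* correlated at 0.74 in the Ts2Yah line and 0.85 in the Ms3Yah line. *Cry2* and *Per2* correlated at 0.83 and 0.72, and *Nr1d2* and *Dbp* at 0.57 and 0.89, Ts2Yah before Ms3Yah. *Per3* and *Dbp* stood at 0.02 in the Ts2Yah line and 0.85 in the Ms3Yah line, and without mice 37039 and 37094 at 0.14 over all mice. *Clock* and *Nr1d1* stood at 0.97 in the Ts2Yah line, where mice 34662 and 34661 were highest for both genes and 34730 and 34725 were low for both. In those mice *Clock* was 419, 416, 244 and 272 and *Nr1d1* 409, 411, 164 and 181. All 4 are Ts2Yah Dup mice.

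Further genes of the clock were taken from a list of 16, of which 13 had a probe and 6 were detected on every array. None passed for genotype in Ts2Yah or in Ms3Yah. At an unadjusted p below 0.05 it was 1 of 13 in Ts2Yah and 0 in Ms3Yah, where 5.56% and 5.16% of all probes passed. The 1 was *Arntl2*, a relative of *Arntl* detected on 2 arrays only (log2 difference -0.15, limma adjusted p = 0.853). Between the diploid cohorts 2 of 13 passed, both higher in Ts2Yah WT, where 2.7% of all probes passed. At an unadjusted p below 0.05 it was 3 of 13, where 16.6% of all probes passed. The median log2 difference was 0.08 over the list and 0.00 over all probes. *Ciart*, a repressor within the loop, differed by 0.76 (SE 0.20, adjusted p = 0.0406), and *Rora*, which activates *Arntl* at ROR elements, by 0.39 (SE 0.09, adjusted p = 0.0203). *Tef*, a relative of *Dbp*, differed by 0.51 (SE 0.14) and missed the threshold (adjusted p = 0.0534). *Bhlhe40*, *Csnk1d*, *Csnk1e* and *Timeless* differed by 0.28, 0.08, 0.18 and 0.13 and did not pass.

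Genes known to follow the clock in muscle or other tissues were taken as a list of 12, all with a probe and 11 detected on every array. None passed for genotype in either line, adjusted or not. Between the diploid cohorts 1 of 12 passed, *Wee1*, whose probe was detected on 1 array only, where 2.7% of all probes passed. At an unadjusted p below 0.05 it was 5 of 12, all higher in Ts2Yah WT, where 16.6% of all probes passed, and the median of the list was 0.19. *Usp2*, a ubiquitin protease driven by the clock, differed by 0.72 (SE 0.20, adjusted p = 0.0503), *Coq10b* by 0.55 (SE 0.19, adjusted p = 0.135), *Tspan4* by 0.33 and *Lonrf3* by 0.24. *Tcap* and *Myod1*, clock targets of muscle, differed by 0.08 and 0.02. *Pdk4* and *Ucp3*, which also answer to fasting, differed by 0.50 (SE 0.49) and 0.33 (SE 0.31).

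*Per1* answers directly to glucocorticoids, so 8 genes induced by these hormones were set beside it. None passed in either line, between the lines or between the diploid cohorts. Between the diploid cohorts 1 was higher and 1 lower at an unadjusted p below 0.05, where 16.6% of all probes passed. They were *Klf9*, by 0.36 (SE 0.11, limma adjusted p = 0.0807), and *Zbtb16*, by -0.37 (SE 0.12, adjusted p = 0.115). *Fkbp5*, *Tsc22d3*, *Sgk1* and *Mt2* differed by 0.24, 0.25, 0.44 and 0.06, and *Cdkn1a* and *Mt1* by -0.68 (SE 0.33, adjusted p = 0.316) and -0.15. The median of the list was 0.15.

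Markers of other cells were compared between the diploid cohorts as well. All 3 adipocyte genes with a probe were lower in Ts2Yah WT at an unadjusted p below 0.05 in limma, where 16.6% of all probes passed. None passed when adjusted, with differences of -2.01 for *Adipoq* (SE 0.65, adjusted p = 0.101), -1.43 for *Lep* (adjusted p = 0.114) and -0.44 for *Plin1* (adjusted p = 0.0856). Their summed signal was 431 to 1677 in Ts2Yah WT mice, against 748 to 5706 in Ms3Yah WT mice. The endothelial gene *Pecam1* was higher by 0.45 (adjusted p = 0.0470), and *Cdh5* did not pass (-0.06). The nerve gene *Mbp* differed by 0.55 (adjusted p = 0.235) and the macrophage gene *Adgre1* by -0.40 (adjusted p = 0.240). Both had an unadjusted p below 0.05 in limma as well, and neither passed when adjusted. The muscle sum was 206125 to 216510 in Ts2Yah WT, against 205197 to 219064 in Ms3Yah WT mice. The part of these cells in the clock genes was not tested. *Xist* and the Y-linked *Eif2s3y* were each detected on 12 of the 23 arrays, and the count of members called between the diploid cohorts was 7 with *Xist* as a covariate too.

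Outside the members, the genes most like *Arntl* were sought among the probes detected on every array, by Pearson r of deviations from group means over the 23 mice, as a description. Genes of the lists were not left out, and *Usp2* and *Coq10b*, named below, also belong to the list of genes known to follow the clock. The 8 highest were *Auts2* (0.84), *Wsb1* (0.83), *Dtx4* (0.83), *Spon2* (0.83), *Fam110b* (0.79), *Plat* (0.77), *Coq5* (0.77) and *Zfhx3* (0.75), the last a transcription factor of the central clock. The 4 lowest were *Usp2* (-0.81), *Heatr1* (-0.76), *Parn* (-0.73) and *Pcsk7* (-0.72). *Auts2* and *Fam110b* followed *Arntl* in both lines, at 0.78 and 0.80 in the Ts2Yah line and 0.94 and 0.84 in the Ms3Yah line. *Spon2* stood at 0.19 and 0.91, Ts2Yah before Ms3Yah.

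The genes most like *Dbp* were *Coq10b* (0.83), *Specc1l* (0.81), *2510002D24Rik* (0.79), *Rarres2* (0.77), *Cldn12* (0.77), *Usp2* (0.76), *Slu7* (0.74) and *Gtf3c2* (0.71). Those least like it were *Plat* (-0.83), *Rab11fip5* (-0.82), *Lhfpl2* (-0.82) and *Spon2* (-0.81). All 8 had a higher r in the Ms3Yah line than in the Ts2Yah line. *Coq10b* stood at 0.16 in the Ts2Yah line and 0.94 in the Ms3Yah line, and without mice 37039 and 37094 it was 0.35 over the mice left. *Rarres2* and *Usp2* kept the highest values in the Ts2Yah line among the 8, at 0.55 and 0.47. *Fam110b*, like *Arntl*, was lower in Ts2Yah WT than in Ms3Yah WT mice (log2 difference -0.60, limma adjusted p = 0.00448), as was *Coq5* (-0.27, adjusted p = 0.0416). *Cldn12*, like *Dbp*, was higher (0.42, adjusted p = 0.0142), as was *Parn*, which ran opposite to *Arntl* (0.19, adjusted p = 0.0156). The other genes most or least like *Arntl* or *Dbp* did not pass, and of these *Zfhx3* (0.26) and *Pcsk7* (-0.08) went the other way.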

How the data were processed

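The arrays were Illumina MouseWG-6 v2.0 BeadChips, read from total RNA of gastrocnemius. The deposited signals are non-normalised intensity values, the lowest being 66.7, each with the authors' detection p-value. The series matrix deposited by the authors holds background-subtracted, normalised intensity values on a linear scale (column medians 3.81 to 3.85); its centring and method of subtraction are unknown. Scanner software is not given in the sources used here. The authors had set aside 1 diploid array of the Ts2Yah line.

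Signals were quantile normalised and log2 transformed. Probes above the 35th percentile (89.8) on at least 1 array of a fit were tested in limma 3.58.1 (R 4.3.3; moderated two-sided test), each line alone, or in 1 fit of 4 groups for contrasts across lines. P-values were adjusted by Benjamini-Hochberg over all tested probes. Intervals are 95% intervals of the fit. Folds are ratios of mean signals. Names came from the platform annotation updated through RefSeq (34885 probes with 1 gene, 18 with several, 10378 with none). The brightest probe stands for a gene. All members are named, with list genes at an unadjusted p below 0.05, up to 4 more per list (all 8 of the glucocorticoid list and the interval genes were added after their values were seen), and the 8 most and 4 least like genes. Members and lists were chosen with earlier results of these data known. The fit and the permutation test were tested on simulated data. P-values measure the spread between mice; 5 or 6 arrays per group limit precision. Alternatives were neqc, median scaling, the series matrix, other filters, the methods' t-test, other sample sets, *Xist* as a covariate and leaving out mice.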

Additional observations from a re-analysis of the deposited data

Results flagged for a closer look

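On log2 signals, the gap between the most extreme mouse of a group and its neighbour was divided by the range of that group for each clock gene and set against Dixon's 95% critical value. Of 40 sets of values 2 exceeded it, and chance gives 2 at 1 in 20. *Per2* in Ts2Yah Dup mouse 34662 was 247 and the next mouse 447, or 7.95 and 8.80 in log2 units (0.70 of the log2 range). *Dbp* in Ms3Yah WT mouse 37094 was 368 and the next mouse 2076, or 8.53 and 11.02 in log2 units (0.754 of the log2 range). On linear signals the ratios were 0.607 and 0.521, below the critical value.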

How the results depend on the processing

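No member was called by genotype in Ts2Yah, in Ms3Yah or in the difference between the lines under any setting run, leaving out each mouse included. Between the diploid cohorts the count of 7, where 2.7% of all probes passed, became 2 with median scaling (0.634%), 3 with the series matrix (1.27%), 4 with the methods' t-test (1.77%), 4 with diploid mice only (1.42%) and, chosen after seeing the data, 2 with aneuploid mice (3.11%). It ran from 3 to 7 when a mouse was left out, with 3 without Ms3Yah WT mouse 37094 or Ts2Yah WT mouse 34925 (1.49% of all probes in each) and 4 without 34561 (2.52%) or 34731 (1.96%). *Dbp* kept its direction and lost its call in 6 of 10 other settings, *Cry2* in 5, *Arntl* and *Per3* in 3, *Nr1d2* in 2 and *Per2* in 1; leaving out a mouse lost *Dbp* for 16 mice (all but 37038, 37448, 37039, 37146, 37040, 37041 and 34662), *Arntl* for 37094, 37145, 34731, 34723 and 34925, *Cry2* for 37094, 37075, 34561, 34731, 34923 and 34925, *Per3* for 37094, 34561 and 34925, and *Per2* and *Nr1d2* for 0 mice. The cause was not tested. Of 198 values of these 6 genes under alternatives, 148 were called, 50 were not and 0 turned their sign. Of 838 values of results not called as reported, 0 were called and 26 turned their sign. *Arntl* against *Dbp* missed the threshold in the Ts2Yah line alone (r = -0.65), and ran from -0.89 to -0.74 when a mouse was left out; *Arntl* against *Nr1d1* ran from 0.01 to 0.18 then, from -0.21 to 0.71 under other settings, and did not pass under any run. *Cry1* was not tested under the detection filter. Unadjusted counts ran from 0 to 3 in Ms3Yah, where 3.71% to 5.97% of all probes passed, and from 0 to 4 between the lines, where 3.87% to 6.48% did; both were highest without mouse 37039 (5.03% and 5.55%).

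The file headers name no chip, so no chip block was run, and the difference between the lines was fitted on all 4 groups only. No paired analysis was possible because each mouse has its own identifier and no number is shared by the groups. Signals of *Cry1* at background, and of *Per3* and, in the Ts2Yah line, *Arntl* near it, limit what can be said of them.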
